A study of Mus musculus with 4 samples.

Results

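Glypicans, syndecans and the enzymes that build, sulfate and cut glycosaminoglycan chains were compared between DPPIV- and DPPIV+ fibro-adipogenic progenitors (FAPs), the Sca1+ mesenchymal cells of the muscle interstitium. The members were all symbols of the count table that start with Gpc, Sdc, Ndst, Chst, Has or Hyal followed by a digit, with Hs2st, Hs3st, Hs6st, Chsy, Xylt or Extl, or that are Ext1, Ext2, Sulf1, Sulf2 or Glce. This gave 61 of 24421 symbols. Of these, 38 reached 2 CPM (counts scaled to library size) in at least 2 libraries and were tested, 11 had some reads but stayed under that level, and 12 had 0 reads in all 4 libraries, which allows a level of up to 3 counts.

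The 4 RNA-seq libraries came from 2 adult wild-type mice that had received a CSF1R inhibitor for 3 weeks, which depletes muscle macrophages, and then a regular diet for 3 days. The labels give the tissue as Tibialis Anterior, while their protocol describes muscle of both hindlimbs, and the age and sex of these mice were not given in the labels. From each mouse, cells negative for propidium iodide, CD31 and CD45 and positive for Sca1 were sorted into DPPIV- FAPs and DPPIV+ FAPs. Each mouse therefore gave 1 library of either cell type, both cell types had seen the inhibitor, and no untreated mouse was part of the comparison. The study asked whether DPPIV+ FAPs form a niche for self-renewing resident macrophages and sampled both FAP subsets while these macrophages were depleted.

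The libraries held 18240110 to 20879405 counts, of which 0.323 to 0.375% fell on the members, and 3 counts corresponded to 0.144 to 0.164 CPM. These limits cover counting error only. Dpp4 encodes the sorting marker DPPIV. It was at 89.8 CPM (mouse 1) and 39.7 CPM (mouse 2) in DPPIV- FAPs and at 728 and 575 CPM in DPPIV+ FAPs. The fitted log2 fold change was 3.41 ± 0.076 (SE), with ratios of 3.02 and 3.86 in the 2 mice. This SE comes from the spread that edgeR's fit gave to genes of that abundance, and not from the spread between the mice. DESeq2's SE was 0.41. The 5 FAP markers (Pdgfra, Ly6a, Cd34, Dcn and Col1a1) summed to 27472 to 34007 CPM per library, with 2 higher and 3 lower in DPPIV+ FAPs. Summed tenocyte markers (Scx, Tnmd, Mkx and Fmod) were 197 and 295 CPM in DPPIV- FAPs and 749 and 1550 CPM in DPPIV+ FAPs, with 4 of 4 higher. Summed mural markers were 122 and 109 against 62.6 and 65.2 CPM, with 5 of 6 lower by edgeR and 3 by DESeq2. Endothelial markers other than Tek (Pecam1, Cdh5, Kdr and Vwf) were all lower in DPPIV+ FAPs by edgeR but did not pass DESeq2's test (adjusted p = 0.0928 to 0.541), while Tek was higher by 1.42 on the log2 scale. The 5 leukocyte and macrophage markers summed to 56.0 to 89.3 CPM, and 2 of them, Adgre1 and Csf1r, were lower by edgeR but did not pass DESeq2's test (adjusted p = 0.182 and 0.511). Of the glial markers 1 of 3 tested was lower (S100b), of the perineurial markers 1 of 2 (Cldn1), the 4 myofibre markers did not pass (edgeR adjusted p = 0.18 to 0.974), and satellite cell markers stayed under the filter at summed levels of 1.37 to 1.62 CPM. Scx reached the filter only through its DPPIV+ libraries, and Cldn1 and the mural marker Kcnj8 only through their DPPIV- libraries. These markers were therefore tested only because they were high there. No marker was at 0 in every library, and the part of these other cell types in the differences below was not tested. In sorted bulk RNA, fewer cells of a kind and less RNA per cell cannot be told apart.

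Proteoglycans are core proteins that carry long chains of repeated disaccharides. Glypicans are held in the outer membrane leaflet by a lipid anchor and syndecans span the membrane. Both carry chiefly heparan sulfate, which is begun by xylosyltransferases, extended by Ext1 and Ext2, and then modified in the Golgi by N-sulfation, epimerization and O-sulfation. The pattern of sulfate groups decides which growth factors, chemokines and proteases a chain can hold near a cell. Chondroitin and keratan sulfate are sulfated by other enzymes, most of them named Chst, and hyaluronan is an unsulfated chain made at the plasma membrane by the Has enzymes.

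Of the 38 members tested, 10 were higher and 13 were lower in DPPIV+ FAPs (edgeR's quasi-likelihood test with mouse as a block, Benjamini-Hochberg adjusted p under 0.05), and 15 passed in neither direction. Over all 11588 genes tested, 15.9% were higher and 17.2% were lower by the same rule. All 23 called members had the same sign in both mice, which a call in a fit paired by mouse makes likely. The same held for 33 of all 38 members tested. The median log2 fold change was -0.02 over the members and -0.002 over all genes tested. DESeq2's Wald test called 8 members higher and 10 lower, against 7.97% and 8.59% of all genes, and all 18 of these were among the 23. Tested against a 1.5-fold change, 7 members were higher and 5 were lower, against 3.76% and 5.66% of all genes. Among the called members, Chst1, Hs3st1, Has1 and Chst15 were higher by more than 2-fold, and Sdc3, Chst11, Sdc1 and Gpc1 were lower by more than 2-fold. Chst2, lower by 1.9997-fold, fell just short of this cut. The share of all genes past the cut was not counted, so no weight rests on how many members passed it. The fit gave each gene the spread typical of its abundance and none of its own.

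**Figure D1:**
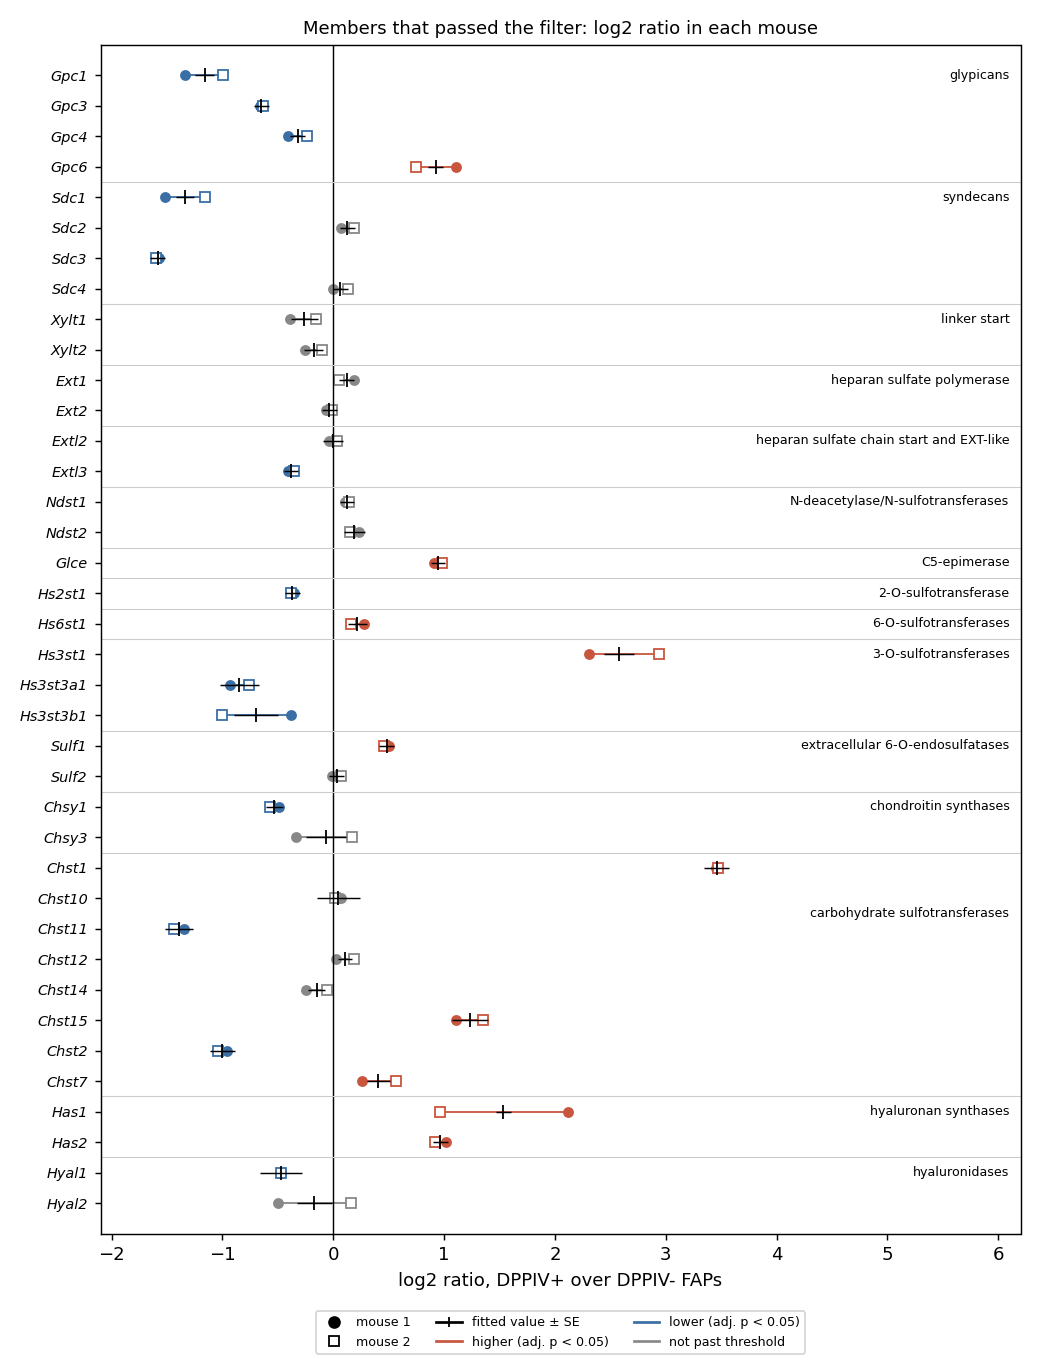
Log2 ratio of DPPIV+ to DPPIV- FAPs (horizontal axis) for the 38 members tested, grouped by role. Circles are mouse 1, open squares mouse 2 and black ticks the fitted value with its SE; red marks the 10 members higher, blue the 13 lower and grey the 15 not past the threshold, and Has1 shows the widest gap between the mice.

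**Figure D2:**
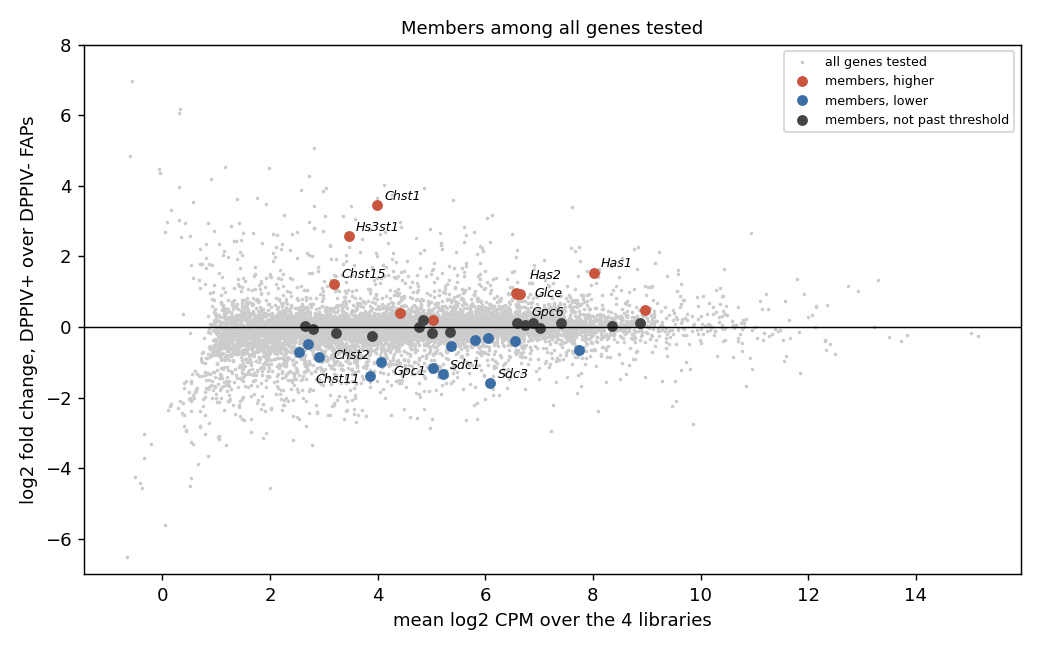
Fitted log2 fold change (vertical axis) against the mean log2 CPM over the 4 libraries (horizontal axis) for all 11588 genes tested (light grey dots), with the 38 members drawn large. Chst1 (3.46) and Hs3st1 (2.58) are the highest members, and those that fell lie at log2 fold changes between -1.59 and -0.32.

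The DNA just upstream of the start sites is shown for 5 of the 6 members with the largest changes called by both tests, 2 that rose and 3 that fell, as RefSeq gives it on GRCm38.p6. Chst1 was left out because its RefSeq start was not found in a GENCODE transcript. The stretch of Hs3st1 lies inside the span that GENCODE gives this gene (39613935 to 39755475), at a start within the gene. Which start these cells use was not tested. Each stretch ends before the first base that GENCODE M21 places in an exon, is written 5′ to 3′ on the gene's strand, and shows in capitals any match, on either strand, to the GC box as GGGCGG, the CCAAT box by its own letters or the TATA box as TATAAA.
Hs3st1 (chr5:39644635-39644781, minus strand): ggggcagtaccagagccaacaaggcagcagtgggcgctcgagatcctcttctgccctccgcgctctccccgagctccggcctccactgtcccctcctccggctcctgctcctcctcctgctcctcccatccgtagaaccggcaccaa
Has1 (chr17:17855206-17855338, minus strand): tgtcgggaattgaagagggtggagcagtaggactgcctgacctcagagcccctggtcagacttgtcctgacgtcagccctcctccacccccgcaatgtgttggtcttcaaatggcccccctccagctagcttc
Sdc3 (chr4:130792387-130792536, plus strand): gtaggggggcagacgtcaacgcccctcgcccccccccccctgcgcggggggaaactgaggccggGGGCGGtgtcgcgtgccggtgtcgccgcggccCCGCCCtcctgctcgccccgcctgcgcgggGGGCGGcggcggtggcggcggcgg
Chst11 (chr10:82985347-82985496, plus strand): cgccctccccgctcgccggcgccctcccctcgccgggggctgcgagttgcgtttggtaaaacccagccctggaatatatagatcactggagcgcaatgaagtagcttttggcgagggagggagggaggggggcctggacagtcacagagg
Sdc1 (chr12:8771246-8771322, plus strand): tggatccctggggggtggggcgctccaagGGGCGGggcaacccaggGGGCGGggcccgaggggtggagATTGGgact
The stretch of Sdc3 had a G+C content of 84.0% with 24 CG dinucleotides, and that of Has1 59.4% with 3. In the full RefSeq windows of 250 bases before to 50 after a start, which were given for 28 of the members tested, GGGCGG was found for 23, among them 4 of the 7 that rose and 11 of the 11 that fell. It was found for 70.8% of all tested genes with a window and for 38.2% of all genes with one. CCAAT was found for 13 of the 28 members and 42.5% of the tested genes, and TATAAA for 1 member and 8.51% of the tested genes (41.1% and 15.7% of all genes). A match is a description of these letters and not a binding site.

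Of 6 glypicans, 3 fell in DPPIV+ FAPs and 1 rose. Gpc1 (ENSMUSG00000034220.7, chromosome 1, 92831645 to 92860779, plus strand) was at 48.6 and 48.7 CPM in the DPPIV- FAPs of mice 1 and 2 and at 19.2 and 24.5 CPM in DPPIV+ FAPs. This amounted to a log2 fold change of -1.16 ± 0.086 (SE of the fit, edgeR adjusted p = 4.47e-40, DESeq2 8.01e-11), with ratios of -1.34 and -0.99 in the 2 mice. Gpc3, a glypican known for restraining hedgehog signalling and body size (X chromosome, 52272426 to 52613950, minus strand), was at 265 and 271 CPM against 167 and 174 CPM, a log2 fold change of -0.65 ± 0.067 (edgeR adjusted p = 8.89e-21). The ratios of Gpc3 within the mice, -0.66 and -0.64, were nearly equal. Gpc4 was at 77.2 and 70.0 CPM against 58.1 and 59.6 CPM, a log2 fold change of -0.32 (edgeR adjusted p = 1.23e-05), which did not pass DESeq2's test (adjusted p = 0.0776). The ratios of Gpc4 were -0.41 in mouse 1 and -0.23 in mouse 2. Gpc6 (chromosome 14, 116925315 to 117976544, plus strand) went the other way, from 59.9 and 80.5 CPM to 129 and 135 CPM, with a log2 fold change of 0.92 ± 0.066 (edgeR adjusted p = 5.00e-42, DESeq2 7.42e-12) and ratios of 1.11 and 0.75 in the mice. Both DPPIV+ libraries lay above both DPPIV- libraries for Gpc6 and below them for Gpc1, Gpc3 and Gpc4. Of all 11588 genes tested, 27.8% lay above and 28.6% below in this way, so such a separation is common with 2 libraries a group. Gpc2 had 12 to 32 reads per library and Gpc5 had 0.

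The make-up of the glypican transcripts shifted with these changes. Per kilobase of exon, Gpc3 was the most abundant glypican in all 4 libraries, but its share of the family's CPM per kilobase was 67.3% ± 0.078 (SD, n = 2) in DPPIV- FAPs and 57.4% ± 0.30 in DPPIV+ FAPs. The share of Gpc6 was 7.37% ± 1.4 in DPPIV- FAPs and 18.6% in each DPPIV+ library. In DPPIV- FAPs Gpc6 was at 9.33 and 12.5 CPM per kilobase and Gpc1 at 9.43 and 9.44, and with the longest transcript as length Gpc6 was the higher in both mice (14.4 and 19.4 against 11.7 and 11.7). In DPPIV+ FAPs Gpc6 was at 20.1 and 21.0 and Gpc1 at 3.73 and 4.74 CPM per kilobase. These shares were described and not tested. Summed over the family, glypican CPM was 452 and 471 in DPPIV- FAPs and 374 and 394 in DPPIV+ FAPs.

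Among the 4 syndecans, 2 fell and 2 did not pass the test. Sdc3 (ENSMUSG00000025743.14, chromosome 4, 130792537 to 130826319, plus strand), the syndecan with the longest extracellular part, was at 103 and 135 CPM in DPPIV- FAPs and at 34.8 and 44.4 CPM in DPPIV+ FAPs. This amounted to a log2 fold change of -1.59 ± 0.069 (edgeR adjusted p = 2.20e-112, DESeq2 1.05e-35), with ratios of -1.57 and -1.60 in the mice. Sdc1 (chromosome 12, 8771323 to 8793715, plus strand), the chief syndecan of epithelia and plasma cells, was at 61.4 and 56.4 CPM against 21.4 and 25.3 CPM, a log2 fold change of -1.33 ± 0.082 (edgeR adjusted p = 9.10e-58, DESeq2 2.43e-15).

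Sdc2 was at 476 and 428 CPM in DPPIV- FAPs and at 499 and 486 CPM in DPPIV+ FAPs, with a log2 fold change of 0.13 ± 0.068 (edgeR adjusted p = 0.155). Sdc4, a focal adhesion proteoglycan, was at 102 and 106 against 102 and 116 CPM (log2 fold change 0.06 ± 0.066, adjusted p = 0.518). Per kilobase of exon, Sdc2 was the highest of all members tested, at 121 to 142 CPM per kilobase. With the longest transcript as length, Has1 was above Sdc2 in the DPPIV+ FAPs of mouse 1 (153 against 142). Gpc3 was then slightly above Sdc2 in the DPPIV- FAPs of mouse 2 (122.1 against 121.3). Sdc2 made up 62.7% ± 2.9 (SD, n = 2) of the syndecan CPM per kilobase in DPPIV- FAPs and 71.6% ± 2.5 in DPPIV+ FAPs. The share of Sdc3 was 9.75% ± 2.1 and 3.38% ± 0.52. The family sum was 743 and 725 CPM against 657 and 672 CPM.

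**Figure D3:**
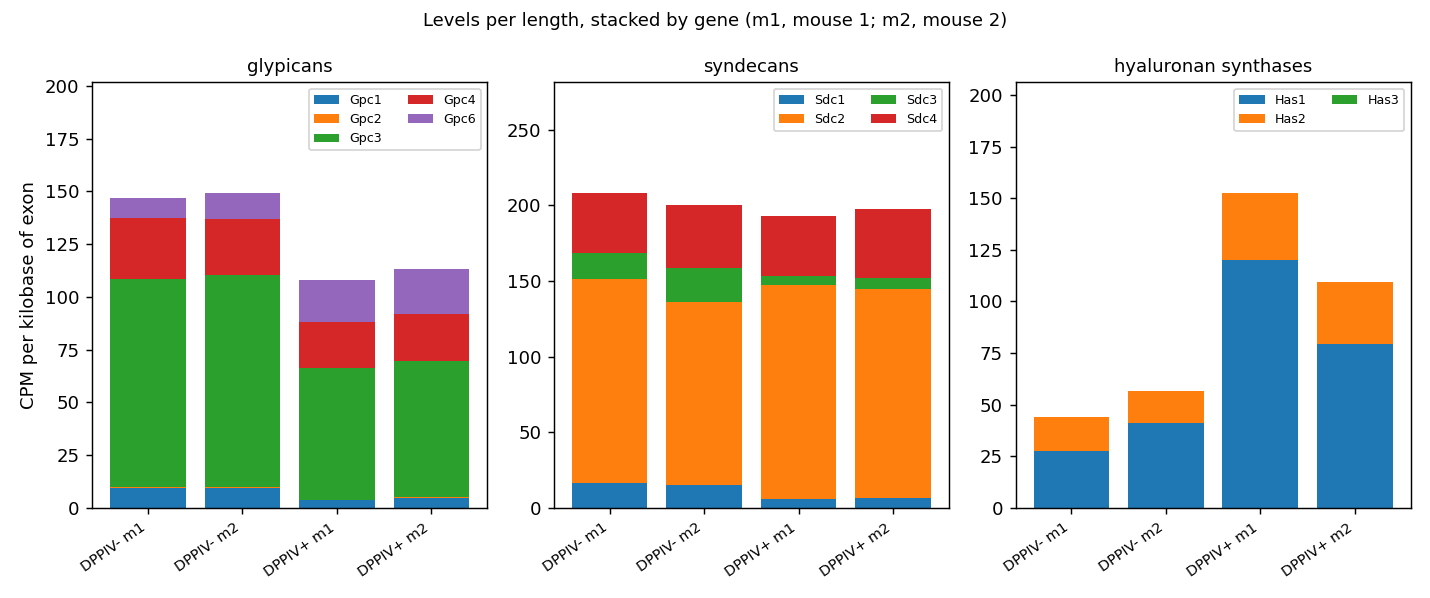
CPM per kilobase of exon (vertical axis) stacked by gene for glypicans, syndecans and hyaluronan synthases in each of the 4 libraries (m1, mouse 1; m2, mouse 2). Gpc3 and Sdc2 form the largest block of their families in every library, the Gpc6 block is larger in DPPIV+ FAPs (20.1 and 21.0) than in DPPIV- FAPs (9.33 and 12.5), and Has1 and Has2 are both larger in DPPIV+ FAPs.

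The enzymes that start and extend heparan sulfate differed little between the cell types. The xylosyltransferases Xylt1 and Xylt2, which add the first sugar to a core protein, had log2 fold changes of -0.26 and -0.18 and did not pass the test (edgeR adjusted p = 0.096 and 0.103). Ext1 was at 157 and 169 CPM against 178 and 176 CPM (adjusted p = 0.167) and Ext2, its partner in the polymerase, at 134 and 129 against 129 and 128 CPM (adjusted p = 0.736). Extl3, which adds the first N-acetylglucosamine and so commits a chain to heparan sulfate, fell from 105 and 109 CPM to 78.6 and 85.4 CPM, a log2 fold change of -0.38 (edgeR adjusted p = 4.77e-08, DESeq2 0.0078). Extl2 had a log2 fold change of -0.004 (adjusted p = 0.982). The bifunctional N-deacetylases and N-sulfotransferases Ndst1 and Ndst2, which open the sequence of modifications, had log2 fold changes of 0.13 and 0.19 (adjusted p = 0.14 and 0.0951). Of these 8 genes only Extl3 passed the test.

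Later modification steps moved in different directions. Glce, the C5-epimerase that turns glucuronic into iduronic acid (chromosome 9, 62057248 to 62122655, minus strand), was at 73.3 and 71.6 CPM in DPPIV- FAPs and at 138 and 141 CPM in DPPIV+ FAPs. This was a log2 fold change of 0.95 ± 0.066 (edgeR adjusted p = 4.97e-44, DESeq2 1.91e-15). Hs2st1, which adds 2-O-sulfate chiefly to iduronic acid, fell from 65.4 and 61.5 CPM to 51.0 and 47.3 CPM, by 0.37 on the log2 scale (edgeR adjusted p = 1.08e-06, DESeq2 0.0388). Hs6st1, a 6-O-sulfotransferase, was at 27.4 and 33.6 CPM against 33.2 and 37.4 CPM. The groups overlapped for Hs6st1, and its log2 fold change of 0.21 passed edgeR's test (adjusted p = 0.0388) and not DESeq2's (0.552), with ratios of 0.28 and 0.16 in the mice. Hs6st2 had 11 to 32 reads per library, and Hs6st3 had 0.

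The 3-O-sulfotransferases, which add the rarest of the modifications, held the second largest change among the members that passed the filter. Hs3st1, the enzyme best known for making the antithrombin-binding site of heparin (ENSMUSG00000051022.7, chromosome 5, 39613935 to 39755475, minus strand), had 121 and 65 reads in DPPIV- FAPs and 516 and 464 reads in DPPIV+ FAPs. In CPM this was 5.78 and 3.32 against 28.7 and 25.5, a log2 fold change of 2.58 ± 0.14 (edgeR adjusted p = 1.92e-74, DESeq2 6.26e-24), with ratios of 2.31 and 2.94 in the mice. Hs3st3a1 was lower, at 10.9 and 9.05 CPM against 5.72 and 5.32 CPM (log2 fold change -0.85 ± 0.18, edgeR adjusted p = 7.85e-06, DESeq2 0.0326). Hs3st3b1 was at 6.16 and 8.49 CPM against 4.72 and 4.22 CPM (log2 fold change -0.70 ± 0.20, edgeR adjusted p = 0.00195), and did not pass DESeq2's test (0.216). Its ratio was -0.38 in mouse 1 and -1.0 in mouse 2. The transcripts of Hs3st3a1 and Hs3st3b1 share a stretch of 774 bases at 97.7% identity, so reads could be split between them and their separate values are uncertain. Hs3st3a1 also shares 32.9% of its exon bases with F930015N05Rik on the opposite strand, which had 41 and 39 reads in DPPIV- FAPs and 26 and 13 in DPPIV+ FAPs. Hs3st2, Hs3st5 and Hs3st6 had 0 reads in all libraries and Hs3st4 had at most 3.

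Sulf1 and Sulf2 are secreted endosulfatases that remove 6-O-sulfates from finished chains outside the cell. Sulf1 (chromosome 1, 12692277 to 12861192, plus strand) was at 425 and 420 CPM in DPPIV- FAPs and at 601 and 577 CPM in DPPIV+ FAPs, which made a log2 fold change of 0.48 ± 0.069 (edgeR adjusted p = 2.97e-11, DESeq2 8.57e-07). Sulf2 was at 317 and 327 CPM against 315 and 344 CPM (log2 fold change 0.03 ± 0.068, adjusted p = 0.786). Sulf1 passed the test and Sulf2 did not, and the difference between their fold changes was not tested.

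**Figure D4:**
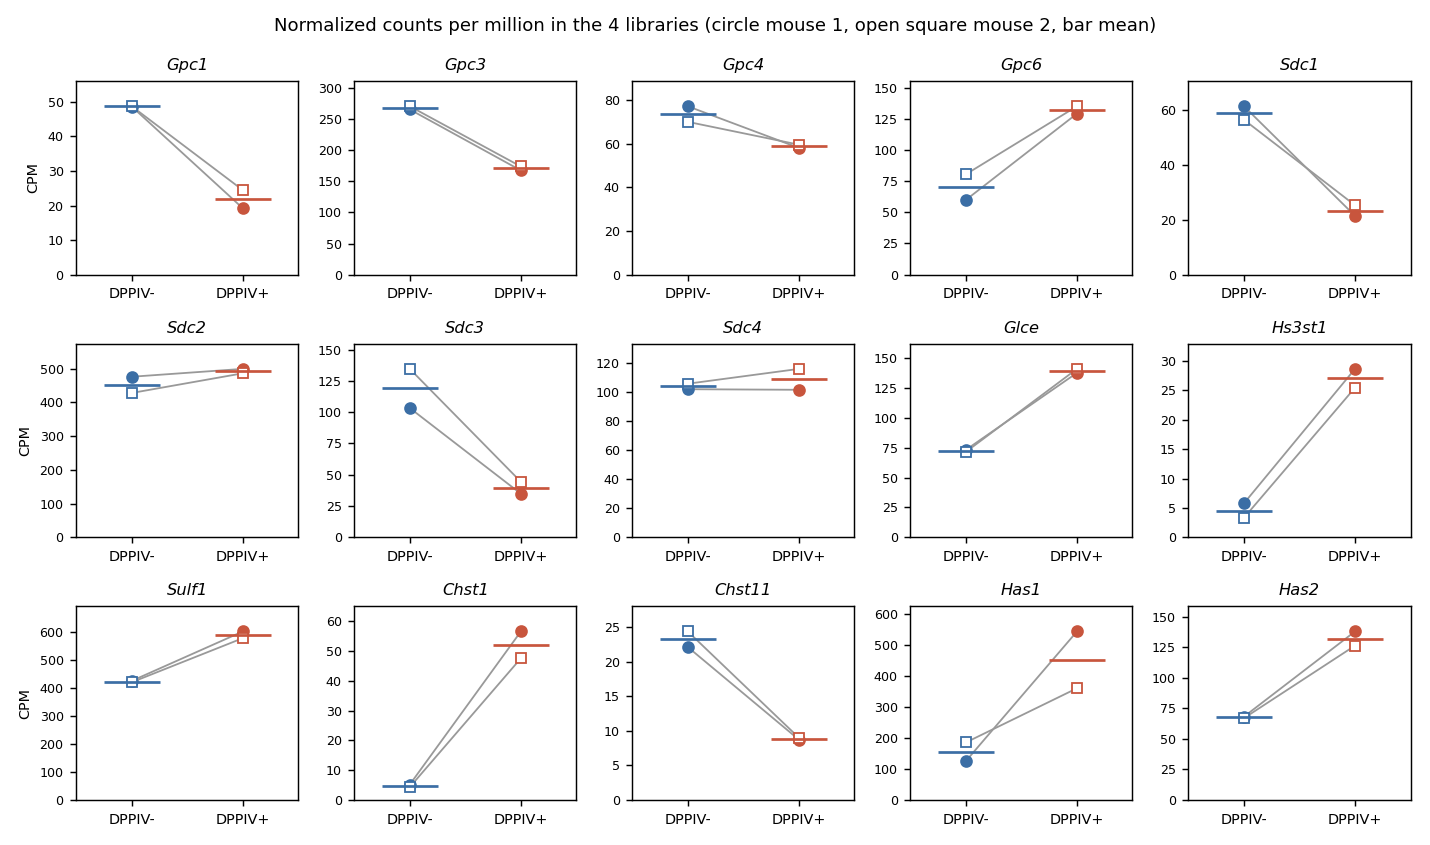
Normalized CPM (vertical axes, each from 0) of 15 members in DPPIV- (blue) and DPPIV+ (red) FAPs. Circles are mouse 1, open squares mouse 2, lines join the libraries of a mouse and bars are means; Sdc2 and Sdc4 change little, Chst1 and Hs3st1 rise from low levels, and the Has1 line is steeper in mouse 1.

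The largest change among the members that passed the filter was that of Chst1, a sulfotransferase that acts on galactose in keratan sulfate (ENSMUSG00000027221.5, chromosome 2, 92599707 to 92615250, plus strand). It had 108 and 84 reads in DPPIV- FAPs and 1019 and 867 reads in DPPIV+ FAPs. In CPM the values were 5.16 and 4.29 against 56.6 and 47.6, a log2 fold change of 3.46 ± 0.11 (edgeR adjusted p = 2.98e-197, DESeq2 2.39e-68). The ratios were 3.45 and 3.47 in the mice. Chst2, which sulfates N-acetylglucosamine, was lower, at 21.6 and 25.4 CPM against 11.1 and 12.3 CPM (log2 fold change -1.0 ± 0.12, edgeR adjusted p = 2.20e-16). Chst10, the HNK-1 sulfotransferase, did not pass the test (log2 fold change 0.04, adjusted p = 0.902).

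Chondroitin sulfation enzymes were divided. Chst11, a chondroitin 4-O-sulfotransferase (ENSMUSG00000034612.7, chromosome 10, 82985498 to 83195900, plus strand), fell from 22.1 and 24.4 CPM to 8.72 and 9.0 CPM, a log2 fold change of -1.39 ± 0.13 (edgeR adjusted p = 4.66e-27, DESeq2 5.91e-09). Chst12, which catalyses the same step, was at 97.6 and 89.0 CPM in DPPIV- FAPs and had a log2 fold change of 0.11 (adjusted p = 0.235). Per kilobase, Chst12 stood at 39.5 CPM in DPPIV- FAPs and 42.4 in DPPIV+ FAPs (means of 2), and Chst11 at 4.21 and 1.60. Chst14, which sulfates dermatan, had a log2 fold change of -0.15 (adjusted p = 0.143). Chst15, which adds a further sulfate to 4-sulfated units, rose from 5.73 and 6.08 CPM to 12.4 and 15.5 CPM, a log2 fold change of 1.23 ± 0.16 (edgeR adjusted p = 8.26e-14, DESeq2 6.89e-05).

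The 6-O-sulfotransferases of chondroitin are Chst3 and Chst7. Chst7 was at 20.4 and 16.6 CPM against 24.3 and 24.5 CPM (log2 fold change 0.40 ± 0.10, edgeR adjusted p = 0.000487, DESeq2 0.172), with ratios of 0.26 and 0.56 in the mice. Chst3 was under the filter with 57 and 38 reads in DPPIV- FAPs and 9 and 7 in DPPIV+ FAPs. When all 16873 genes with a read were tested, Chst3 was lower (log2 fold change -2.37 ± 0.46, edgeR adjusted p = 1.94e-06). Chst5 had 0 and 5 reads against 7 and 26 reads (log2 fold change 2.87 ± 0.89, adjusted p = 0.00725 in the same fit). These were the 2 of the 11 members under the filter that passed. Chst8 had 5 to 18 reads per library and did not pass in that fit, and Chst4, Chst9 and Chst13 had 0. The chondroitin synthase Chsy1 fell from 44.8 and 54.1 CPM to 31.9 and 36.4 CPM, by 0.53 on the log2 scale (edgeR adjusted p = 1.46e-10, DESeq2 0.00328), while Chsy3, at means of 7.07 and 6.81 CPM, did not pass (log2 fold change -0.07, adjusted p = 0.832).

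Both hyaluronan synthases that passed the filter were higher in DPPIV+ FAPs. Has2, the main synthase of embryonic mesenchyme (ENSMUSG00000022367.7, chromosome 15, 56665627 to 56694539, minus strand), was at 68.1 and 66.9 CPM in DPPIV- FAPs and at 138 and 126 CPM in DPPIV+ FAPs. This amounted to a log2 fold change of 0.97 ± 0.066 (edgeR adjusted p = 5.52e-46, DESeq2 1.80e-15), with ratios of 1.02 and 0.92 in the mice. Has1 (ENSMUSG00000003665.7, chromosome 17, 17843323 to 17855205, minus strand) was at 125 and 185 CPM against 542 and 359 CPM. Mouse 1 had the lower DPPIV- and the higher DPPIV+ value, so that the fold was 4.34 in mouse 1 and 1.94 in mouse 2. The fitted log2 fold change was 1.53 ± 0.070 (edgeR adjusted p = 8.10e-102), while DESeq2's SE was 0.55. With DESeq2 the adjusted p was 0.0349, and with robust moderation, which lets a gene keep a spread of its own, edgeR's adjusted p was 0.411 and the call was lost. Dpp4 also lost its call there (adjusted p = 0.178) and kept it with DESeq2 (8.75e-16).

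Per kilobase, Has1 was at 27.7 and 40.9 CPM in DPPIV- FAPs and at 120 and 79.5 in DPPIV+ FAPs, above Has2 in every library (16.1 and 15.8, then 32.6 and 29.8). Has3 had 8 to 15 reads per library and Has2os, an antisense transcript at the Has2 locus, 25 to 33; neither passed when tested without the filter. Hyaluronidases were low. Hyal1, a lysosomal enzyme, was at 7.65 and 7.46 CPM against 5.50 and 5.38 CPM (log2 fold change -0.47 ± 0.19, edgeR adjusted p = 0.0376, DESeq2 0.483). It shares 50.8% of its exon bases with Naa80 on the same strand, so the source of its reads is uncertain. Hyal2, which is anchored to the cell surface, had ratios of -0.50 and 0.16 in the mice and did not pass (adjusted p = 0.461). Hyal3 had 4 to 14 reads, and Hyal4, Hyal5 and Hyal6 had 0. Only 2 hyaluronidases were tested and neither was called higher, where edgeR called 15.9% of all genes tested higher. A balance of hyaluronan synthesis and breakdown was not tested.

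The remaining members under the filter were Extl1, with 0 to 6 reads, Ndst4, with at most 1, and Ndst3, with 0. Reads of antisense genes could not be told from those of Gpc1 (18.9% of exon bases shared with Ankmy1, which had 3 to 6 reads), Chst15 (17.9% with Gm10584, which had 0), Hs6st1 (8.07% with Gm37335), Sdc3 (6.93% with Gm26716), Has2 (4.30% with Has2os), Chsy1 (3.54% with Gm26827) or Sulf2 (2.62% with Ncoa3, which had 1394 to 2012 reads), since the strand setting of the counting was not given in the sources used here.

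Genes of the same pathway outside these families numbered 66 in 6 lists, of which 55 were tested, 15 were higher and 15 were lower (median log2 fold change 0.03). DESeq2 called 12 higher and 8 lower. Of all 11588 genes tested, edgeR called 15.9% higher and 17.2% lower, and DESeq2 called 7.97% and 8.59%. These shares belong beside the counts of every list below, and no list was tested as a set. Of the enzymes and transporters that supply nucleotide sugars and activated sulfate, 8 of 15 were higher and 1 was lower (Slc35b2), with a median log2 fold change of 0.17. DESeq2 called 7 of them higher and 0 lower, and not Papss1 or Slc35b2 (adjusted p = 0.532 and 0.299). Gfpt2, which opens the hexosamine pathway, was at 375 and 505 CPM in DPPIV- FAPs and at 1294 and 1371 CPM in DPPIV+ FAPs (fitted log2 fold change 1.61 ± 0.072, edgeR adjusted p = 4.85e-106). Ugdh, which makes UDP-glucuronic acid, was at 211 and 231 CPM against 582 and 588 CPM (log2 fold change 1.41 ± 0.069, adjusted p = 1.54e-87). Further steps towards UDP-N-acetylglucosamine, Gnpnat1 and Uap1, had log2 fold changes of 1.27 and 1.09. Pgm3, Ugp2, Uxs1 and Papss1 were also higher, by 0.17 to 0.71, while the paralog Gfpt1 had a log2 fold change of 0.08 (adjusted p = 0.404). UDP-glucuronic acid and UDP-N-acetylglucosamine are the substrates of the Has enzymes and of heparan sulfate polymerase. Summed over the list, the level was 1487 and 1683 CPM in DPPIV- FAPs and 3305 and 3352 CPM in DPPIV+ FAPs.

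**Figure D5:**
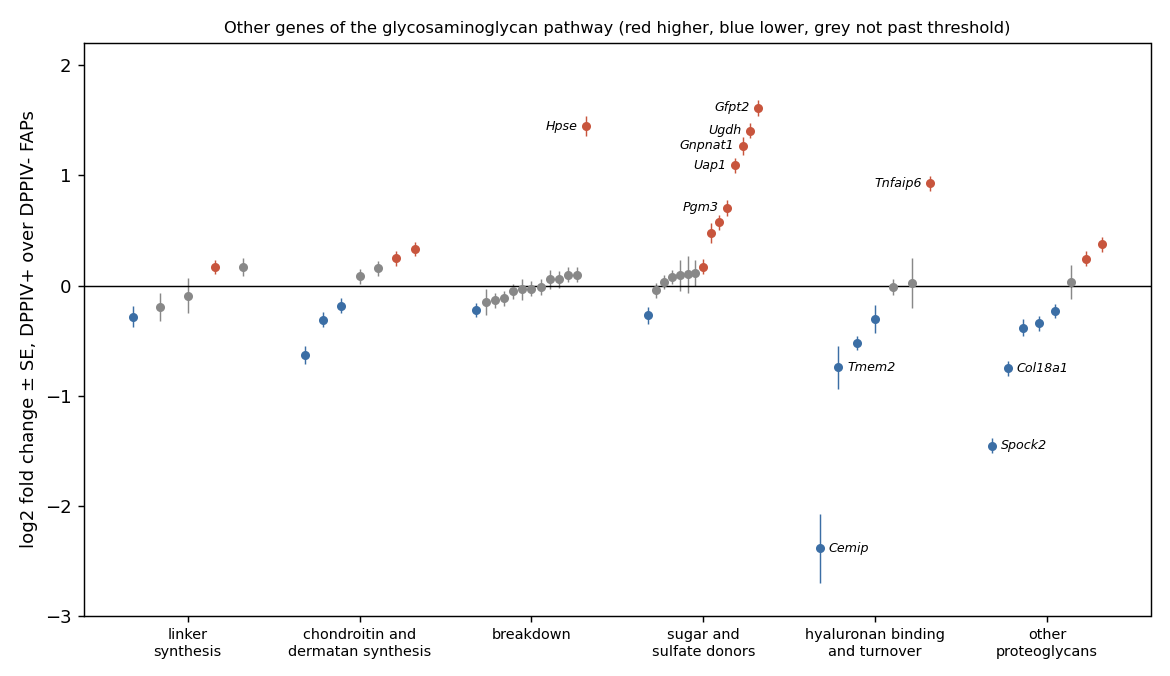
Fitted log2 fold change with SE (vertical axis) of the 55 tested pathway genes outside the member families, in 6 lists along the horizontal axis. Red points were higher and blue points lower in DPPIV+ FAPs; the sugar and sulfate donor list has 8 red points of 15, and breakdown enzymes other than Hpse lie near 0.

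Linker synthesis had 1 of 5 genes higher (Fam20b) and 1 lower (Pxylp1), and neither passed DESeq2's test. Of 7 enzymes of chondroitin and dermatan synthesis, 2 were higher and 3 were lower. Csgalnact1 was at 45.8 and 50.9 against 31.2 and 31.2 CPM (log2 fold change -0.63). Chpf and Ust had log2 fold changes of -0.31 and 0.33. DESeq2 called 1 higher and 2 lower, and not Csgalnact2 or Chpf2 (adjusted p = 0.155 and 0.475). Among the 13 breakdown enzymes tested, 1 rose, Hpse. It encodes heparanase, which cuts heparan sulfate chains, and was at 21.0 and 15.5 CPM in DPPIV- FAPs against 56.0 and 43.5 CPM in DPPIV+ FAPs (fitted log2 fold change 1.45 ± 0.088, edgeR adjusted p = 1.46e-58).

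Of 7 hyaluronan binding and turnover genes tested, 1 was higher and 4 were lower, with a median log2 fold change of -0.31. DESeq2 called 2 of the 4 lower and not Stab1 or Tmem2 (adjusted p = 0.530 and 0.137). Tnfaip6, whose product links hyaluronan to other matrix proteins, was higher, at 177 and 176 CPM against 396 and 284 CPM (log2 fold change 0.93 ± 0.068, DESeq2 adjusted p = 0.00076), with ratios of 1.16 and 0.69 in the mice. Cemip, a hyaluronan-degrading protein, was lower from a low level, at 2.34 and 5.78 CPM against 0.222 and 1.37 CPM. Its log2 fold change was -2.39 ± 0.31, with ratios of -3.36 and -2.07 in the mice, and it did not pass without the block for mouse (edgeR adjusted p = 0.0531). Cemip reached the filter only through its DPPIV- libraries, so it was tested only because it was high there. Cd44, the main hyaluronan receptor, was lower at 115 and 139 against 80.5 and 96.6 CPM (log2 fold change -0.52).

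Other proteoglycan core proteins had 2 of 8 tested higher and 5 lower, with a median of -0.29. Spock2, a testican, showed the largest change among those tested, from 142 and 145 CPM to 46.9 and 58.2 CPM (log2 fold change -1.46 ± 0.068, edgeR adjusted p = 7.45e-98). Spock3, another testican, stayed under the filter, with 0 and 1 reads in DPPIV- FAPs and 23 and 19 reads in DPPIV+ FAPs. Col18a1 and Hspg2, which encode basement membrane proteoglycans, were lower by log2 fold changes of -0.75 and -0.38, and Tgfbr3, a membrane proteoglycan that binds TGF-β, was higher by 0.37. Vcan, which encodes versican, was also higher (log2 fold change 0.24), and Agrn and Prg4 were lower (-0.23 and -0.34). Agrn did not pass DESeq2's test (adjusted p = 0.303), and without the block for mouse none of these 3 passed (edgeR adjusted p = 0.302 for Vcan, 0.123 for Agrn and 0.324 for Prg4).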

How the data were processed

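RNA-seq was analysed from DPPIV- and DPPIV+ FAPs of 2 mice. Per the methods and the submitters' processing notes, the authors demultiplexed reads with bcl2fastq 2.20, aligned them to mm10 with STAR and tallied reads per annotated gene with RnaReadCounter, and they deposited the raw counts by gene symbol. No normalization had been applied. The labels and the methods name different stranded mRNA kits. The values were checked to be whole numbers.

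From these counts, a minimum of 2 CPM in 2 or more libraries left 11588 of 24421 genes, which were scaled by TMM and tested in R 4.3.3 with edgeR 4.0.16 (quasi-likelihood F test, mouse and cell type in the model, prior count 0.125, two-sided, Benjamini-Hochberg over all genes kept, threshold 0.05). CPM values use TMM-scaled library sizes, and SE is the log2 fold change over the square root of F. DESeq2 1.42.0 was an alternative. The fits were tested on simulated counts. Of 49 genes set to change 1.5-fold, edgeR found 44 and DESeq2 26, with 9 and 0 false calls among 11455 genes. The counts were drawn with the spread typical of a gene's abundance and without a mouse effect. They could therefore not show errors that come from a gene's own spread. The labels give each animal number to 1 library of either cell type, so mouse was a block. The mouse 2 minus mouse 1 differences in both cell types correlated at 0.434 across the 11588 genes, which are not independent. With n = 2 mice, edgeR's p-values and SE rest on the spread typical of a gene's abundance. They do not measure that gene's own spread between the mice, and they cover these animals only.

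Positions, exon lengths and overlaps came from GENCODE M21 (GRCm38), near-identical transcripts from BLAST 2.17.0 (at least 97% identity over 200 bases), and promoters from RefSeq on GRCm38.p6. Every member was named by its rule. Of each pathway list, up to 4 genes with the largest changes called by both tests, with the same sign in both mice, were named, and other genes of a list were named after their values were seen. The members and lists were chosen with earlier results of these data known. Alternatives were no replicate block, RLE and upper-quartile scaling, no filter, 2 CPM in at least 3 libraries, robust moderation, a test against 1.5-fold, each mouse left out and, for shares within a family, the longest transcript as length. 1 result of the pathway lists is not reported here.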

Additional observations from a re-analysis of the deposited data

How the results depend on the processing

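No called member changed sign under any alternative. RLE scaling, no filter and 2 CPM in at least 3 libraries left all 38 members on the same side of the threshold. Without the replicate block for mouse, 8 members were higher and 11 lower, and Hs6st1, Hs3st3b1, Chst7 and Hyal1 no longer passed. DESeq2 lost these and Gpc4. Robust moderation lost Has1 (adjusted p = 0.411). Upper-quartile scaling shifted the median of all genes to -0.04, lost Hs6st1 and added Xylt1, Xylt2 and Chst14 as lower (9 higher, 16 lower). Against a 1.5-fold change, 7 members were higher and 5 lower. Of the pathway genes, 15 were lower, 8 by DESeq2 and 6 without the replicate block. With 1 mouse left out no test was possible. The log2 ratio of every called member kept its sign in the mouse that remained, which restates the same sign in both mice and is no further check. With the longest transcript as length, the share of Gpc3 was 68.1% in DPPIV- and 56.4% in DPPIV+ FAPs, that of Gpc6 9.51% and 23.3%, and that of Sdc3 in DPPIV+ FAPs 3.99%. At this depth 3 reads set the limit for the 12 members at 0, and members under the filter rest on at most 57 reads per library.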
